A study of Ulmus pumila with 3 samples.

Results

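The miR162 and miR403 names of Siberian elm (Ulmus pumila) roots were described across a control and 2 salt treatments. They were taken by their family number, and there were 9 of them among 309 miRNA names, with 7 names in miR162 and 2 in miR403. Every one of the 9 was listed in all 3 libraries.

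MicroRNAs are short RNAs that an Argonaute protein holds and uses to find matching transcripts, which are then cut or silenced. In plants they are cut out of hairpin precursors by DICER-LIKE1 (DCL1). In Arabidopsis, miR162 guides the cleavage of the DCL1 transcript itself, and miR403 guides the silencing of AGO2, an Argonaute with a role in antiviral defence, so both families act on the machinery that makes or uses small RNAs. The elm targets were not measured here.

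The 3 small RNA libraries came from roots of wild-type seedlings 30 days old. One came from unsalted seedlings (control), and the others from seedlings under 50 mM NaCl for 6 h or under 200 mM NaCl for 24 h. The salt treatments differ in both dose and time, which cannot be told apart. Each condition had 1 library, so no difference was tested between conditions, and every 95% interval covers counting error within the libraries only. The tables hold miRNA names and no marker transcripts, so the tissue label was not checked. In whole roots, fewer cells that make a miRNA and less of it per cell cannot be told apart.

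Counts over all names summed to 509280 in the control library, 449522 under 50 mM NaCl and 545587 under 200 mM. Levels are given as reads per 1000000 counts of all names (RPM), with no correction for length because a read is a whole small RNA of 20 to 22 nt here. A name was compared between a pair of libraries when both held it and at least 1 had 20 counts. It was called higher or lower when its RPM differed by a factor of 2 or more and the exact interval of the ratio left out 1.

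The mature sequences show which names are variants of one another, and they are printed 5′ to 3′ from the deposited tables, with the seed (bases 2 to 8) in capitals.
miR162a-3p: uCGAUAAAccucugcauccag
miR162b: uCGAUAAAccucugcaucca
miR162c: uCGAUAAAccucugcauccgg
miR162d: uCGAUAAGccucugcauccag
miR162e: uUGAUAAAccucugcauccag
miR162a-5p: uGGAGGCAgcgguucaucgauc
miR162f: gGAGGCAGcgguucaucgauc
miR403a: uUAGAUUCacgcacaaacucg
miR403b: uUAGAUUCacgcacaaacuug

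By the arm labels of miR162a and by sequence, the miR162 names fall on both arms of a hairpin. miR162a-3p, miR162b and miR162c share the seed CGAUAAA, which no name of another family carries. miR162b is miR162a-3p without its last base. Counted from 1 at the 5′ end of miR162a-3p, miR162c differs from it by A20G, outside the seed. miR162d differs by A8G and miR162e by C2U, both inside the seed, so each has a seed of its own. The other arm is represented by miR162a-5p and by miR162f, which is the same sequence without the first base. Laid against each other without gaps, miR162a-3p and miR162a-5p faced over 20 positions and paired at 17, with 3′ overhangs of 1 nt on miR162a-3p and 2 nt on miR162a-5p. The 2 miR403 names share the seed UAGAUUC, again found in no other family, and differ by C20U counted from the 5′ end of miR403a. Of the 9 names, 8 begin with U, the first base that Arabidopsis AGO1 is known to favour, and miR162f begins with G.

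The names do not stand for 9 separate measurements. miR162a-3p and miR162b differed by 18 counts in the control library, 11 under 50 mM NaCl and 14 under 200 mM, which is 0.431%, 0.251% and 0.232% of the miR162a-3p count. miR162a-5p and miR162f had identical counts in every library. Names that overlap in sequence and have near-equal counts were therefore treated as sharing reads, which leaves 7 groups of the 9 names. miR162c, a single base from miR162a-3p, had 8.29 times fewer counts than it in the control library, so these names were counted apart.

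miR162a-3p, the arm known to guide DCL1 cleavage in Arabidopsis, was among the most counted names of the root. It had 4180 counts in the control library, 4388 under 50 mM NaCl and 6029 under 200 mM, or 8208, 9761 and 11050.5 RPM. These counts ranked 17th, 17th and 15th in their libraries. The level was lowest in the control library and highest at 200 mM, and the counting intervals (7961 to 8460, 9475 to 10055 and 10773 to 11333 RPM) did not overlap. miR162b had 4162, 4377 and 6015 counts in the same order of libraries.

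miR162c was the next form of the family. It had 504 counts in the control library, 444 under 50 mM NaCl and 628 under 200 mM, or 989.6, 987.7 and 1151 RPM. The control and 50 mM libraries stood at nearly the same level and the 200 mM library above them, with intervals that overlap between all 3 libraries. The seed variants were rare. miR162d had 23, 23 and 26 counts in the control, 50 mM and 200 mM libraries, and its level was nearly flat. miR162e had 13, 19 and 33 counts, or 25.5, 42.3 and 60.5 RPM, in the same order of libraries. Its level was highest at 200 mM, with intervals that overlap between all 3 libraries.

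The opposite arm of miR162 was close to absent. miR162a-5p and miR162f each had 9 counts in the control library, 3 under 50 mM NaCl and 6 under 200 mM. At these counts no difference between libraries was detectable, as the interval of each ratio includes 1. miR162a-5p made up 0.215% of the counts of the arm pair in the control library (with an exact binomial interval of 0.0983% to 0.407%), 0.0683% under 50 mM NaCl (0.0141% to 0.1995%) and 0.0994% under 200 mM (0.0365% to 0.216%). These intervals overlap, and miR162a-3p was the dominant arm in every library.

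miR403a, the main form of the family known to silence AGO2, had 537 counts in the control library, 531 under 50 mM NaCl and 569 under 200 mM. Its levels of 1054, 1181 and 1043 RPM (967 to 1148, 1083 to 1286 and 959 to 1132) overlapped between the libraries, with the 50 mM library highest. The rare form miR403b had 11, 14 and 21 counts, or 21.6, 31.1 and 38.5 RPM, in the control, 50 mM and 200 mM libraries, again with overlapping intervals.

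By level in the control library, miR162a-3p and miR162b came first, followed by miR403a and miR162c, then by miR162d, miR162e, miR403b, miR162a-5p and miR162f. The intervals of miR403a and miR162c overlapped within each library, but only narrowly at 50 mM. There miR403a had an interval of 1083 to 1286 RPM and miR162c one of 898 to 1084. The order of this pair differed between libraries, with miR162c at 1151 RPM and miR403a at 1043 at 200 mM. In the control library miR162c stood at 989.6 and miR403a at 1054, and at 50 mM they stood at 987.7 and 1181. Relative to miR403a, miR162c at 200 mM had 1.18 times its control value (0.992 to 1.39) and 1.32 times its 50 mM value (1.11 to 1.57). Below them, the intervals of neighbours in the control order overlapped at each step from miR162d down to miR162f.

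**Figure D1:**
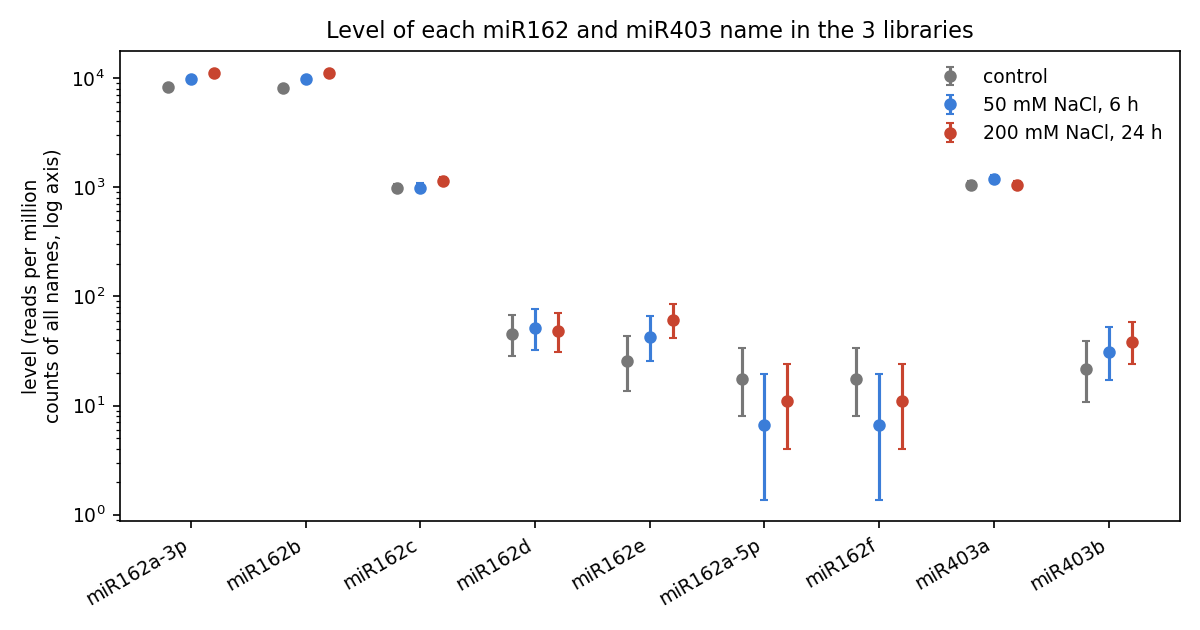
Level of each name (RPM, log axis) in the control (grey), 50 mM 6 h (blue) and 200 mM 24 h (red) libraries, 1 library each; bars are exact 95% Poisson intervals for counting error. miR162a-3p lies between 8208 and 11050.5 RPM with separate intervals, while those of miR403a, between 1043 and 1181 RPM, overlap.

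The first comparison asks how root miRNAs stand after the mild, short treatment. In the 50 mM library, miR162a-3p had 1.19 times its control level (interval 1.14 to 1.24), and miR162 summed over its names had 1.18 times (1.13 to 1.23). That sum counts shared reads under each of their names, which gives the main form more weight. With near-equal names joined and totals unchanged, the miR162 ratio was 1.17 (1.12 to 1.22). miR162c did not share the higher level, with a ratio of 0.998 (0.877 to 1.14). miR403a had 1.12 times its control level, and the interval reaches below 1 (0.992 to 1.27). When the libraries were scaled otherwise, it lay above 1 with TMM factors, a trimmed mean of log ratios (1.17, 1.03 to 1.32), with median-of-ratios factors (1.17, 1.03 to 1.32) and with totals without miR159a (1.15, 1.02 to 1.30). With near-equal names joined in the totals, the miR403a ratio was 1.08 and its interval includes 1 (0.952 to 1.21). None of the 5 members compared was called, where 1.85% of all 162 compared names were called higher, 3.09% lower and 4.94% in either direction. The intervals of miR162a-3p and miR162b, which share their reads, were the ones above 1, and 0 members had one below 1. Of all compared names, 23.5% had an interval above 1 and 27.8% one below it. Over all compared names the log2 ratio had a median of −0.08, so miR162a-3p stood 0.33 and miR403a 0.24 above it on the log2 scale. The 4 members not compared, miR162e, miR162a-5p, miR162f and miR403b, had under 20 counts in both libraries.

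The second comparison asks the same of the strong, long treatment. In the 200 mM library miR162a-3p had 1.35 times its control level (1.29 to 1.40), with 6029 counts against 4180. For miR162c the 200 mM library held 628 counts against 504, at 1.16 times the control level (1.03 to 1.31), though its interval includes 1 when near-equal names are joined in the totals (1.05, 0.929 to 1.18). miR162d had a ratio of 1.06 with a wide interval (0.579 to 1.94). miR162e was called higher, with 33 counts at 200 mM against 13 in the control library, a ratio of 2.37 (1.21 to 4.91). That call rests on few counts and is lost when at least 50 counts are required.

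For miR403 at 200 mM, miR403a had 569 counts against 537, which gives 0.989 (0.878 to 1.11), and 1.25 (1.11 to 1.41) when the libraries were scaled by TMM factors. With near-equal names joined in the totals, the miR403a ratio was 0.889 (0.789 to 1.003). miR403b had 21 counts against 11, which gives 1.78 (0.821 to 4.09), and it was called higher with TMM or median-of-ratios factors but not otherwise.

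Of the 7 members compared at 200 mM against control, 1 was called higher and 0 lower, where 3.57% of all 168 compared names were called higher, 16.7% lower and 20.2% in either direction. An interval above 1 was found for miR162a-3p, miR162b, miR162c and miR162e, and below 1 for 0 members. Of these, miR162a-3p and miR162b share their reads, so the 7 members compared form 6 groups. Of all compared names, 17.3% had an interval above 1 and 54.2% one below it. miR162e and miR403b entered this comparison only through the 200 mM library, where they were high, so the count over compared members leans to higher names by its construction. Over all compared names the log2 ratio had a median of −0.40. Relative to that median, miR162a-3p stood 0.83 higher on the log2 scale, miR162c 0.62, miR162d 0.48 and miR403a 0.39.

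Between the salt libraries, miR162a-3p at 200 mM had 1.13 times its level at 50 mM (1.09 to 1.18), and miR162c had 1.17 times (1.03 to 1.32). miR403a had 0.883 times its level at 50 mM (0.783 to 0.996), but this turned to 1.07 (0.9499 to 1.21) with TMM factors and to 1.09 (0.966 to 1.23) with median-of-ratios factors. The miR403a ratio was 0.827 (0.733 to 0.933) with near-equal names joined in the totals. miR162e had 1.43 times its level at 50 mM, and the interval spans 1 (0.790 to 2.66). None of the 7 members compared was called, where 6.29% of all 159 compared names were called higher, 18.9% lower and 25.2% in either direction. Here too, miR162e and miR403b reached the count minimum only through the 200 mM library, so the compared members lean to higher names by construction. The interval lay above 1 for 3 members, miR162a-3p and miR162b, which share their reads, and miR162c. It lay below 1 for miR403a, beside 24.5% above and 44% below among all compared names. With near-equal names joined in the totals, the miR162c ratio was 1.09 and its interval spans 1 (0.965 to 1.24). miR162a-3p stood 0.41 and miR403a 0.05 above the median of −0.23 that the compared names had as a whole.

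**Figure D2:**
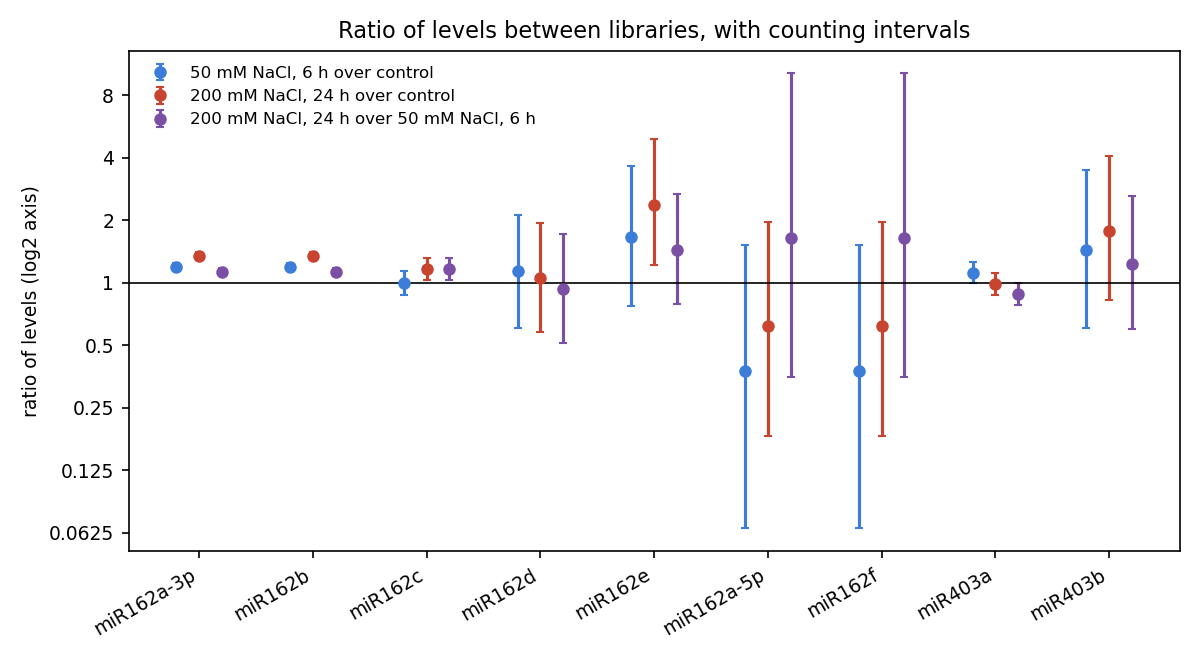
Ratio of RPM between libraries (log2 axis) for each name, with exact 95% intervals for counting error: 50 mM over control (blue), 200 mM over control (red) and 200 mM over 50 mM (purple). The ratios of miR162a-3p, 1.19, 1.35 and 1.13, have intervals above 1, and those of miR162a-5p and miR162f span 1 widely; the miR403a ratios of 200 mM over control and over 50 mM change side of 1 with the scaling.

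**Figure D3:**
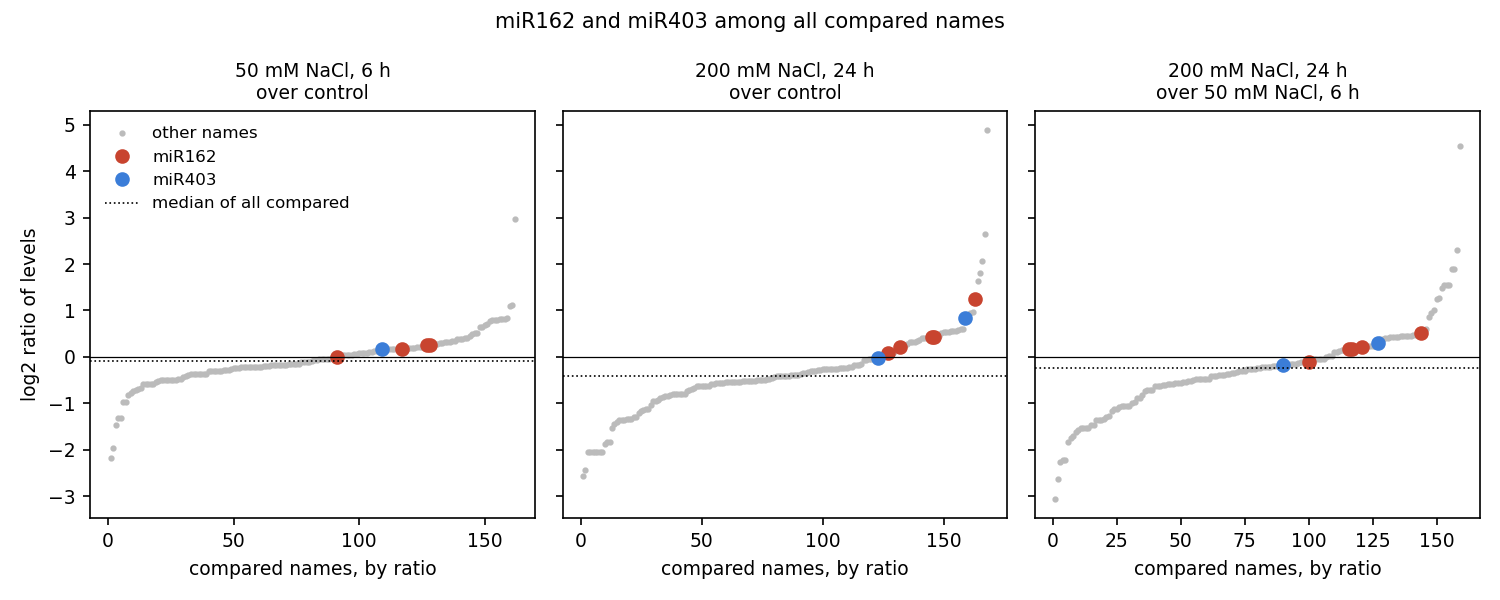
Log2 ratio of every compared name (grey), ordered from lowest to highest in each comparison, with miR162 in red and miR403 in blue; the dotted line is the median of all compared names. At 200 mM over control the 7 members compared lie above the median of −0.40, with miR162e the highest of them. Of these, miR162e and miR403b passed the count minimum only through the 200 mM library, as they also did at 200 mM over 50 mM. miR162a-5p and miR162f, at a log2 ratio of −0.68, had too few counts to be shown.

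The difference in counts between the libraries is relative, since RPM shares out a fixed total and miR159a alone filled much of it. Scaling moved the log2 ratio of every name at 200 mM against control by 0.34 with TMM factors, 0.36 with median-of-ratios factors, 0.15 with totals that left out miR159a and −0.15 with near-equal names joined in the totals. The miR162 ratio at 200 mM against control was 1.34 (1.28 to 1.39) with the sum over all names, and it lay between 1.20 and 1.72 under these scalings. The miR403 ratio was 1.005 (0.892 to 1.13) and lay between 0.904 and 1.29, on both sides of 1. The miR162 sum counts shared reads under each of their names. With near-equal names joined and totals unchanged, the miR162 ratio was 1.33 (1.28 to 1.38).

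**Figure D4:**
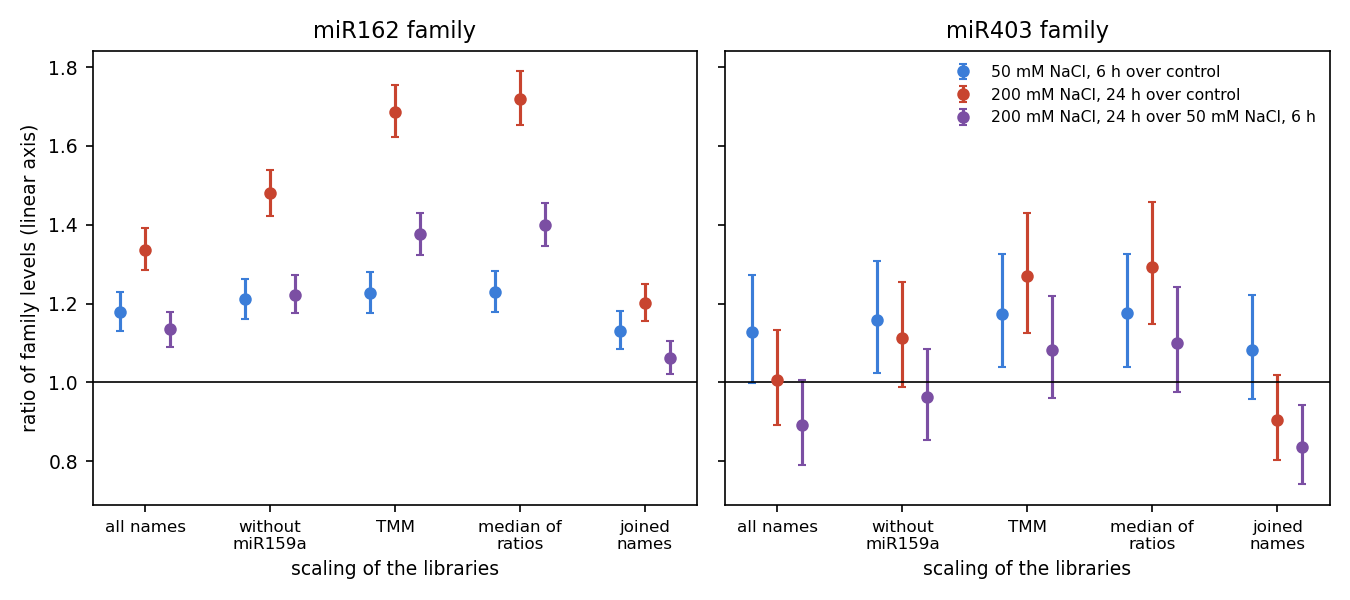
Ratio of the summed level of miR162 (left) and miR403 (right) between libraries under 5 scalings (linear axis); bars are counting intervals as wide as that of the family's most counted name. The miR162 ratios stay above 1 in each scaling shown, whereas the miR403 ratios of 200 mM over control and over 50 mM lie on either side of 1. The miR162 sums count shared reads under each of their names in every scaling.

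Ratios of names within a library do not depend on the scaling. For each count of miR403a there were 10.6 counts of miR162a-3p in the 200 mM library, against 7.78 in the control library, a ratio of these ratios of 1.36 with an exact conditional interval of 1.20 to 1.54. At 50 mM there were 8.26, against 7.78 in the control library, and the interval includes 1 (0.933 to 1.21). Between the salt libraries the same quantity was 1.28 (1.13 to 1.46). The main forms of the 2 families thus stood apart at 200 mM beyond counting error in these libraries.

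Within miR162, the share of miR162c in the counts of miR162c and miR162a-3p was 10.8% in the control library (9.89% to 11.7%), 9.19% under 50 mM NaCl (8.39% to 10.04%) and 9.43% under 200 mM (8.74% to 10.2%). Relative to miR162a-3p, miR162c had 0.839 of its control value at 50 mM (0.732 to 0.962) and 0.864 at 200 mM (0.762 to 0.980), on 1 shared control library. miR162e took 0.310% of its pair with miR162a-3p in the control library, 0.431% under 50 mM NaCl and 0.544% under 200 mM. Relative to miR162a-3p, miR162e at 200 mM had 1.76 times its control value, with an interval that includes 1 (0.901 to 3.65), so its larger ratio was not separated from that of the main form. The share of miR403b in the miR403 counts was 2.01% in the control library, 2.57% under 50 mM NaCl and 3.56% under 200 mM, and relative to miR403a it had 1.80 times its control value at 200 mM (0.821 to 4.18).

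**Figure D5:**
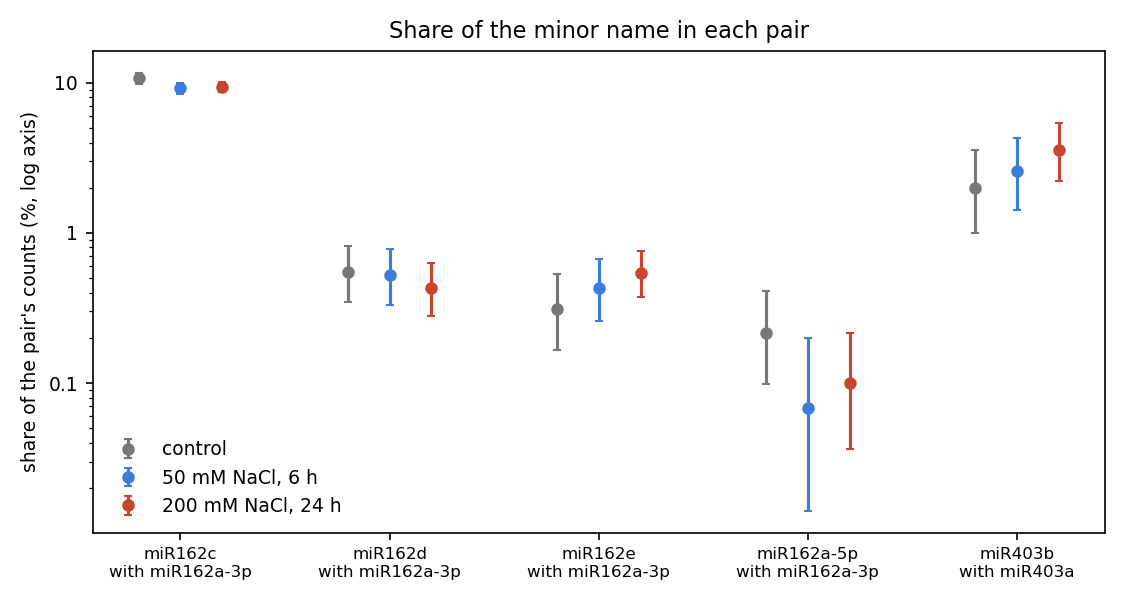
Share of the rarer name in the summed counts of each pair (percent, log axis) in the control (grey), 50 mM 6 h (blue) and 200 mM 24 h (red) libraries, with exact binomial 95% intervals. miR162c takes between 9.19% and 10.8% of its pair, and the other miR162 names under 1%.

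Other families linked to small RNA production were looked up by number: miR168, which targets AGO1 in Arabidopsis, miR390, miR173 and miR828, which start trans-acting siRNAs, and miR393, miR482, miR472, miR1507, miR2109 and miR2118, whose targets are sources of phased siRNAs in several plants. Of these 10 families 3 had a name analysed here, miR393 with 6 names, miR482 with 1 and miR1507 with 1. miR1507 had at most 1 count per library. In each of the 3 comparisons 5 of the 8 names were compared, miR393a, miR393b, miR393c, miR393d and miR482. Of these, miR393b, miR393c and miR393d had identical counts, so the 5 names form 3 groups when near-equal names are joined. None was called higher, where 1.85% of all compared names were at 50 mM and 3.57% at 200 mM against control. Between the salt libraries 6.29% of all were higher. None was called lower against control, where 3.09% of all were at 50 mM and 16.7% at 200 mM. At 200 mM against 50 mM 3 were lower, where 18.9% of all compared names were. The interval lay above 1 for 5 names at 50 mM against control (23.5% of all compared names). It lay below 1 for 1 name at 200 mM against control (54.2% of all) and for 5 between the salt libraries (44%).

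miR482, known to act on resistance genes of the NBS-LRR type, had 6166 counts in the control library, 6289 under 50 mM NaCl and 4643 under 200 mM. Its level exceeded that of miR162a-3p in the control library and lay below it at 200 mM, with 0.770 counts of miR482 per count of miR162a-3p at 200 mM, against 1.48 in the control library. The ratio of these was 0.522 (0.494 to 0.552), and relative to miR403a it was 0.711 (0.627 to 0.806). By itself miR482 had 0.703 times its control level at 200 mM (0.676 to 0.730). That is a log2 ratio of −0.51, near the median of −0.40 over all compared names. miR393a, of the family that targets TIR1/AFB auxin receptors, had 59, 93 and 64 counts in the control, 50 mM and 200 mM libraries, so it was highest at 50 mM, with a ratio to control of 1.79 (1.28 to 2.52) there and of 1.01 (0.700 to 1.47) at 200 mM. The names miR393b, miR393c and miR393d had identical counts and are the 3 called lower at 200 mM against 50 mM, 2.07-fold (1.45 to 2.99). No miR393 name was past the rule with TMM or median-of-ratios factors, or with totals without miR159a.

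The names whose ratios to control lay nearest to those of miR162a-3p were looked for among 91 names of other families with at least 100 counts in every library and no overlap with a member. The distance was taken over the log2 ratios of both salt libraries, 3 libraries in all. miR319a lay nearest at 0.14, with log2 ratios of 0.32 at 50 mM and 0.55 at 200 mM, beside 0.25 and 0.43 for miR162a-3p. miR319b, the same sequence with 1 more base, followed at 0.16 and miR159a at 0.18. For miR403a, whose log2 ratios were 0.16 and −0.02, miR394 lay nearest at 0.11, with 0.06 and 0.03, and miR858b and miR319c followed at 0.15 each. Counting error does not enter these distances, so the order of the near names was not tested.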

How the data were processed

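Small RNA of 3 root samples was sequenced, 1 library per condition; per the labels' protocols, Trizol-extracted RNA was prepared with the NEBNext multiplex kit for small RNA. Not given in the sources used here are the adapter trimming, the aligner, its reference and its mismatches. The authors deposited whole-number read counts per miRNA name, and TPM values that are, for every name, the count per 1000000 of the table's sum, called RPM here. A read can be counted under several names, and the sums over names are not the sequencing depth.

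No p-value was computed. Ratios of counts scaled by the sum over all names have exact conditional binomial (Clopper-Pearson) 95% intervals, levels exact Poisson ones; both cover counting error only, and amplified reads are not independent molecules. A family's interval takes its width from the family's most counted name. Names whose sequences overlap (16 nt or more, either strand, no more than 2 mismatches) with counts within 5% or 3 reads in every library were joined, leaving 201 of 309. Alternatives were TMM (edgeR 4.0.16) and median-of-ratios factors, totals without miR159a, joined names, other count minimums and a ratio of 1.5. Intervals used SciPy 1.17.1. They were checked on simulated independent Poisson counts, which is the model that they assume. That check does not cover shared reads, amplification or variation between plants.

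Named were all members, the listed names of 10 other small RNA pathway families with at least 20 counts in a library, and the 3 names nearest in pattern to miR162a-3p and to miR403a; miR1507 and new-14 fall outside this rule and were named after their values were seen. The members and lists were chosen with earlier results of these data known. No genome was used, so no coordinates are given.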

Additional observations from a re-analysis of the deposited data

How the results depend on the processing

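No paired analysis was possible because each condition has 1 library, and for the same reason no library could be left out. At 50 mM against control, the miR162 ratio stayed within its interval under all 7 alternatives, and the miR403 ratio under all but 1. Leaving out the most counted name of miR162 keeps miR162b, which shares its reads, so that alternative could hardly move the ratio. By itself miR162c had 0.998 there. No miR403 names were joined, so joining names with totals unchanged left the miR403 ratio at 1.13 by construction. At 200 mM against control, the miR162 ratio was 1.69 with TMM factors, 1.72 with median-of-ratios factors, 1.48 with totals without miR159a and 1.20 with near-equal names joined in the totals, and the miR403 ratio was 1.27 and 1.29 with TMM and median-of-ratios factors. Between the salt libraries, miR162 had 1.38, 1.40, 1.22 and 1.06 under the same 4 scalings, and miR403 had 1.08 and 1.10 with TMM and median-of-ratios factors. The miR403a ratio there turned to 1.07 and 1.09 with these factors. With near-equal names joined in the totals, miR403 had 0.835 (0.741 to 0.942) there and miR403a 0.827 (0.733 to 0.933). Without its most counted name, miR403 rests on miR403b alone, with 1.44 at 50 mM against control, 1.78 at 200 mM against control and 1.24 at 200 mM against 50 mM. The members called at 200 mM against control were 2 with TMM and 2 with median-of-ratios factors, as miR403b joined miR162e, and 0 with at least 50 counts required, as miR162e then drops out. In the other comparisons 0 members were called under every alternative run. Counts of at most 33 for miR162d, miR162e and miR403b, and at most 9 for miR162a-5p and miR162f, leave wide intervals.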

Other observations

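A name that the authors list as new, new-14, was chosen after its values were seen because it lies opposite miR403a. It is printed 5′ to 3′ with bases 2 to 8 in capitals.
new-14: uUUGUGUGugaaucuaaagcg
Laid against miR403a without gaps, it faced it over 17 positions and paired at all 17, at 16 by Watson-Crick pairs and at 1 by a G:U pair, with 3′ overhangs of 4 nt on both. It had 133, 136 and 217 counts in the control, 50 mM and 200 mM libraries, so the 200 mM library was highest. Its ratio at 200 mM against control was 1.52 (1.22 to 1.90), and at 50 mM against control 1.16, with an interval that includes 1 (0.905 to 1.48). For each count of miR403a there were 0.381 counts of new-14 at 200 mM, against 0.248 in the control library, a ratio of 1.54 (1.20 to 1.99) that does not depend on the scaling. Between the salt libraries the same ratio was 1.49 (1.16 to 1.92). The share of new-14 in the pair was 19.9%, 20.4% and 27.6% in the same order, far above that of miR162a-5p beside miR162a-3p, which was at most 0.215%. Whether new-14 and miR403a come from 1 hairpin was not tested.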
